A study of Mus musculus with 16 samples.

Results

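The regions described here are 5-kb windows of the mouse autosomes that lay away from the starts of protein-coding genes and were dense in H3K27me3 in the spermatids of wild-type (WT) mice. Chromosomes 1 to 19 were divided into 492539 fixed windows, and 410069 of them had both edges more than 10 kb from every protein-coding gene start of the GENCODE vM21 annotation. In each window, the fragment midpoints of both WT H3K27me3 libraries were pooled and divided by the number that an even spread over the genome would give, which was 6.22 midpoints per window. This quotient is called the fold, and it was at least 5 in 9544 windows, or 2.33% of those that met the distance rule. These 9544 distal windows made up 50.4% of the 18954 autosomal windows with a fold of at least 5, and the remaining 9410 lay closer to a coding gene start and are called near windows.

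The libraries came from haploid spermatids, sorted by DNA content, of 2 pairs of unmated male siblings aged 2 months, each pair with 1 knockout (KO) and 1 WT animal. KO males carried CRISPR/Cas9 mutations in all 3 X-linked genes of the histone variant H2A.B (H2afb1, H2afb2, and H2afb3), in 1 line made in B6;SJLF1/J zygotes and backcrossed to C57BL/6J, while their WT siblings carried none. AutoCUT&RUN, in which an antibody guides micrococcal nuclease (MNase) to its target so that the DNA around it is released and sequenced, was run with antibodies against H3K27me3, H3K4me3, and H3K9me3 and with IgG as the background control. This gave 16 libraries, 2 for each target in each genotype. The replicate numbers were taken as the sibling pairs, which the labels do not state, and each number goes with its own library code in the labels, so the pair and whatever that code marks cannot be told apart.

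The libraries held between 140181 and 3963850 distinct autosomal fragments. Of the pooled WT H3K27me3 fragments that chose the windows, 93.6% came from replicate 1. As a check of the sort, H3K4me3 within 1 kb of the gene start had a fold of at least 5 in all 4 H3K4me3 libraries at 10 of 11 spermatid genes and at 0 of 6 Sertoli cell, 0 of 5 Leydig cell, 0 of 6 spermatogonial, and 0 of 4 blood genes. The spermatid gene that fell short was Prm1 (fold 0.986 to 3.47), and Akap4, also listed, does not lie on chromosomes 1 to 19. The spermatogonial gene Id4 reached a median fold of 11.3. Spermatocyte genes were not listed, so the check does not set spermatids apart from spermatocytes. The 3 H2A.B genes held 22 fragments over the 8 KO libraries and 25 over the 8 WT libraries, too few to separate the genotypes. Of the distal windows, 224 (2.35%) had a fold of at least 5 with IgG, pooled over its 4 libraries, against a background of 1.4% of all windows that met the distance rule. Results that rest on these windows are given with and without them. Because the IgG libraries themselves chose them, leaving them out lowers IgG by construction, so values without them are a description with no test. The libraries of all targets came from the same 4 animals, and with the animal as a block 4 pairs cannot give an exact p below 0.125, so no comparison of 4 libraries against 4 passes with that block.

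H3K27me3 is written by Polycomb repressive complex PRC2 and marks genes that are held silent, above all regulators of embryonic development. In mammals the mark gathers at CpG-rich DNA without transcription and can spread over neighboring sequence, and in male germ cells it is found at developmental genes that are not active in the testis. H3K4me3 marks promoters and other CpG-rich starts and can occur together with H3K27me3, while H3K9me3 marks constitutive heterochromatin and repeats.

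The sequences below are the 300 bp with the most WT H3K27me3 midpoints in 6 of these windows, from 5 of the largest groups of adjoining windows and from 1 of the highest single windows. They are shown because base composition and repetition separated the distal windows from one another. They are the + strand of GRCm38 (mm10), from RefSeq's copy of that assembly, and capitals mark each CG dinucleotide.
chr6:114601238-114601537, near Atg7: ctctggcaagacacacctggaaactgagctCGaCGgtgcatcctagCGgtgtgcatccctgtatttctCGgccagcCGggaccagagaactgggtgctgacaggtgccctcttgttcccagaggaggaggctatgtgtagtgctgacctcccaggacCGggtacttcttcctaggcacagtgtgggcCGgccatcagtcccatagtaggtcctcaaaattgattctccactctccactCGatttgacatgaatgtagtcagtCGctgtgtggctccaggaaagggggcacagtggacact
chr8:123570648-123570947, 5S rRNA array: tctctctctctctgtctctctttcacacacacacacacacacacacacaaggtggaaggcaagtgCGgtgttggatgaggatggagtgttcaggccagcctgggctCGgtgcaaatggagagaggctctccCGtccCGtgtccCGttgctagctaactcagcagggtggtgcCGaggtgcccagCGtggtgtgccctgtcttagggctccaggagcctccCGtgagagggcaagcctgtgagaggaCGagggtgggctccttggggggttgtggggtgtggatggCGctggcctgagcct
chr6:47745731-47746030, between Ezh2 and Pdia4: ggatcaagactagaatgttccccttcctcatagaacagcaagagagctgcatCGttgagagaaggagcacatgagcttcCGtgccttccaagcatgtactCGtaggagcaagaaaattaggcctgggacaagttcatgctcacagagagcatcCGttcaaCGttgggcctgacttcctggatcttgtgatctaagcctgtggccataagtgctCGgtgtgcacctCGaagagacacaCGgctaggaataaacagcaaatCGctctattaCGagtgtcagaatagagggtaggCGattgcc
chr13:21277313-21277612, tRNA cluster: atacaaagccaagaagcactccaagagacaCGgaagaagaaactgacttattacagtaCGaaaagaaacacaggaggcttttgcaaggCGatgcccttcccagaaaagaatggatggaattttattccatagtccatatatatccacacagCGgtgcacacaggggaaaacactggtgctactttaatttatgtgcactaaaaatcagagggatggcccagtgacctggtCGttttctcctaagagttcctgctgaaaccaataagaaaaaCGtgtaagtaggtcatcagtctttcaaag
chr7:70347022-70347321, near Nr2f2: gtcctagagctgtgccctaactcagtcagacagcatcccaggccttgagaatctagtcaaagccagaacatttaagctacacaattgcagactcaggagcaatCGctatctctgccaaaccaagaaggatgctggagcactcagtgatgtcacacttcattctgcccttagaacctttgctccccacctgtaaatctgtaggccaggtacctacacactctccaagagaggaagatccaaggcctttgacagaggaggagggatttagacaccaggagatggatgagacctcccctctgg
chr12:112783456-112783755, Ahnak2 exon: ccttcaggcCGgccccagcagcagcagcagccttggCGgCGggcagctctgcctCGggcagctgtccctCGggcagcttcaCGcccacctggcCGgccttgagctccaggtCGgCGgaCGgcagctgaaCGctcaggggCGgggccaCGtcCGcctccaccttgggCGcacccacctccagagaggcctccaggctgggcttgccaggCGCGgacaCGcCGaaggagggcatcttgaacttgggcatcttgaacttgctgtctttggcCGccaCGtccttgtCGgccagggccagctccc
The stretch in the exon of Ahnak2 has 22 CG dinucleotides and 70.3% G and C, and the stretch in the array of 5S ribosomal RNA genes has 10 and 61.7%. The stretch near Nr2f2 has 1 CG and 50.3% G and C, although the group of adjoining windows around it has 20.1 CpG per kb. The densest stretch of a window was thus not always rich in CG dinucleotides. KO libraries, which did not choose the windows, had 118, 121, and 54 midpoints in these 3 stretches.

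The fold of the 9544 distal windows ran from 5.15 to 885, with a median of 10.3, quartiles of 6.92 and 16.7, and a 99th percentile of 60.7. A fold of at least 20 was reached by 1727 windows and a fold of at least 100 by 44. The windows were chosen by these WT values, which are a description. At the threshold, 251 windows had 32 midpoints (fold 5.15), and 260 windows with 31 midpoints (fold 4.99) were left out. The 724 windows with 32 to 34 midpoints had a median KO fold of 4.58 and 12.2 CpG per kb, and the 883 with 29 to 31 midpoints had 4.08 and 12, so the threshold cut through a continuum.

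The same windows were dense in H3K27me3 in the KO animals. Of the 9544 windows, 8226 (86.2%) had a fold of at least 5 in the pooled KO libraries, where 2.11% of all windows that met the distance rule did. The median KO fold over the distal windows was 9.38, against 0.221 over all windows under the distance rule. In the single libraries the median was 10.5 and 7.52 in WT replicates 1 and 2 and 10.2 and 5.03 in KO replicates 1 and 2. Replicate 2 was the lower one in both genotypes, and the genotypes overlapped. Within each replicate number KO was the lower, in windows that WT values chose. Every distal window had at least 1 KO fragment, while 1133 had none in WT replicate 2, the smallest H3K27me3 library. Across the windows, the pooled KO and WT folds had a Spearman rho of 0.934, and rho between single libraries ran from 0.607 (WT replicates 1 and 2) to 0.931 (WT replicate 1 and KO replicate 1). These values describe windows that share libraries and depth. KO was lower than WT in 64.8% of the distal windows (median log2 ratio -0.10), but also in 56.3% of the 8640 windows that the KO libraries would choose by the same rule (median -0.04), and since WT values chose the former this difference was not tested.

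As a share of each library, the distal windows held 28.3% of the autosomal H3K27me3 fragments of WT replicate 1 (95% Wilson interval 28.3% to 28.4%) and 24.7% of WT replicate 2 (24.5% to 24.9%). In KO the share was 28.5% in replicate 1 (28.5% to 28.6%) and 21.4% in replicate 2 (21.3% to 21.5%). The intervals cover counting error only. The IgG libraries of the same animals held between 3.95% and 6.44% in these windows. In KO, where the windows were not chosen, the summed H3K27me3 fold of 14.7 and 11.1 stood above the IgG fold of 2.24 and 2.03 by 2.58 on the log2 scale. Both H3K27me3 libraries lay above both IgG libraries, and with 2 libraries against 2 the exact two-sided permutation test gives p = 0.333, the smallest it can give. Without the 224 windows of high IgG the difference was 4.07.

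CpG density separated the distal windows from the rest of the DNA far from coding gene starts. They had a median of 14 CpG per kb, against 6.8 in the other windows that met the distance rule and 19 in near windows. Their median G and C content was 45.9% against 40.8% in the other distal DNA, their ratio of observed to expected CpG was 0.267 against 0.162, and 22.6% of their bases lay in repeats masked in the reference against 27.7%. The share of windows with a fold of at least 5 rose from 0.0496% below 5 CpG per kb to 0.650% at 5 to 10, 5.64% at 10 to 15, 14.3% at 15 to 20, 22.3% at 20 to 30, 42.7% at 30 to 50, and 76.3% (45 of 59 windows) at 50 or more. In the KO libraries the shares in the same bins were 0.0451%, 0.580%, 5.02%, 13.2%, 20.8%, 40.03%, and 76.3%. Most distal windows were nonetheless only moderately rich in CpG, with 4284 of them between 10 and 15 per kb and 2630 between 15 and 20.

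The gradient was seen in all 4 H3K27me3 libraries and was shallower with the other targets. Over windows with an IgG fold under 5, the mean H3K27me3 fold of KO replicate 1 went from 0.14 below 5 CpG per kb to 13.6 at 30 to 50, and that of KO replicate 2 from 0.32 to 11.8. In WT it went from 0.15 to 12.7 in replicate 1 and from 0.27 to 12.3 in replicate 2. Between the same bins, H3K4me3 went from between 0.34 and 0.36 to between 3.67 and 4.09 in its 4 libraries. IgG went from between 0.57 and 0.81 to between 1.06 and 1.42, and H3K9me3 from between 0.69 and 0.71 to between 2.11 and 3.94. In the 50 windows with 50 or more CpG per kb the targets parted further. H3K27me3 reached between 48.1 and 134 there and H3K4me3 between 3.31 and 4.42, while H3K9me3 lay lower, between 0.725 and 1.18. IgG was 0.875 and 0.673 in KO and 1.96 and 2.81 in WT. With the windows of high IgG kept, H3K27me3 went from between 0.14 and 0.33 below 5 CpG per kb to between 63.1 and 171 at 50 or more, and IgG from between 0.70 and 0.88 to between 1.66 and 5.29. H3K4me3 then ended between 6.22 and 7.78 and H3K9me3 between 2.76 and 4.75. CpG content also marked where the fragments lay inside a window. In 9515 distal windows with enough KO H3K27me3 fragments, the 500-bp tile with the most of them had a median of 22 CpG per kb against 12.9 in the other tiles, and its density was the higher in 79.2% of windows. For H3K9me3 the densest tile had 16 against 14.7 and the higher density in 51.4% of 5255 windows. IgG coverage did not rise evenly with CpG content. It was lower at 10 to 15 than at 5 to 10 CpG per kb in all 4 libraries, with or without the windows of high IgG, and its part in the H3K27me3 gradient was not tested.

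**Figure D1:**
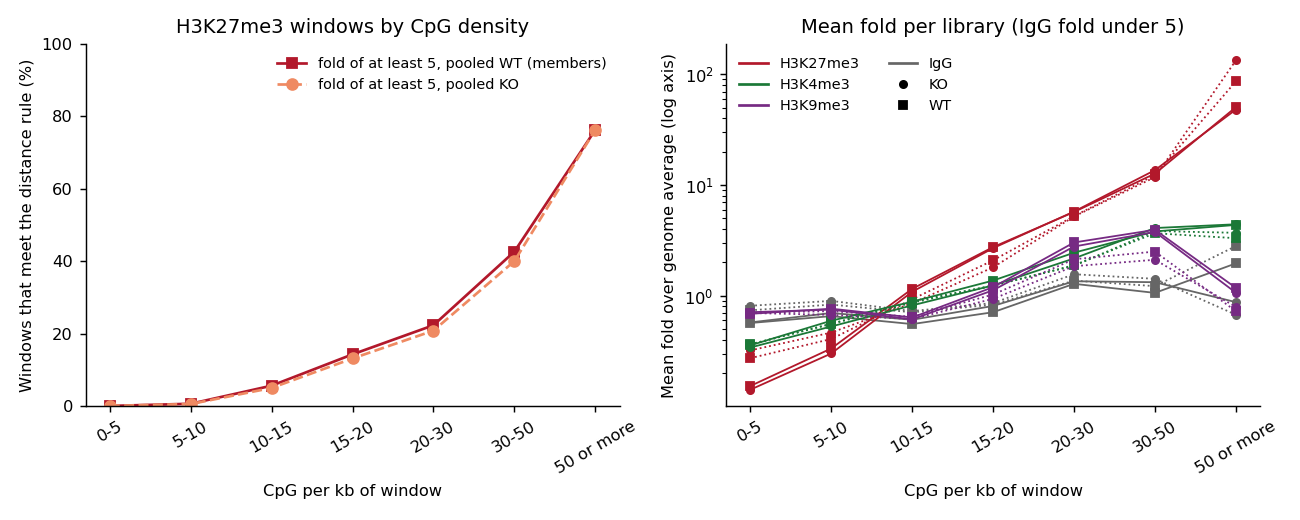
Left, the percent of windows under the distance rule with an H3K27me3 fold of at least 5 in pooled WT (squares, the distal windows described here) and pooled KO (circles) libraries, by CpG per kb; both rise from under 0.1% to 76.3%. Right, the mean fold of each of the 16 libraries on a log axis over windows with an IgG fold under 5, by target (color), genotype (marker), and replicate (solid 1, dotted 2); the 4 H3K27me3 lines climb from between 0.14 and 0.32 to at least 48.1.

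Distal windows thinned out with distance from coding genes, and noncoding genes often began inside them. Between 10 and 20 kb from the nearest coding gene start 3.80% of windows were members, with 3.26% at 20 to 50 kb, 2.99% at 50 to 100 kb, 1.88% at 100 to 500 kb, and 0.574% beyond 500 kb. The KO libraries gave 3.47%, 2.96%, 2.72%, 1.69%, and 0.507%. CpG density fell along the same bins, from a median of 8.8 to 4.6 per kb over all windows and from 15 to 11.4 in the H3K27me3 windows. Their median distance was 58.0 kb, against 113 kb for all windows under the rule, and the farthest lay 2193 kb away. By chromosome, the share of members ran from 1.68% on chromosome 1 to 3.17% on chromosome 5, and it had a Spearman rho of 0.820 with the chromosome's median CpG density across 19 autosomes.

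By position relative to coding genes, 69.98% of the distal windows lay outside every coding gene body, 18.95% held a coding exon, and 11.1% lay within a gene body without an exon. Over all windows under the rule these shares were 61.8%, 15.6%, and 22.6%, so gene bodies without an exon held a smaller part of the H3K27me3 windows than of the DNA. A noncoding gene of GENCODE started in 16.02% of them, against 5.06%. Long noncoding RNA genes started in 630 (6.60% against 1.48%) and pseudogenes in 711 (7.45% against 2.16%). Of the 157 windows with a transfer RNA (tRNA) gene start in the RefSeq annotation, 48 (30.6%) were members, with a median fold of 18.7 in WT and 19.4 in KO. Of the 231 windows with a ribosomal RNA (rRNA) gene start, 29 (12.6%) were members, with medians of 117 and 145. They include windows of 1 array of 5S rRNA genes on chromosome 8, described below, where the mean fold was 112 in WT and 140 in KO. A microRNA gene started in 79 (0.828% against 0.282%), and a small nuclear RNA gene in 28 (0.293%), close to the 0.235% of all windows. The distance rule follows 1 annotation, and 360 of the 9544 windows (3.77%) lay within 10 kb of a coding gene start that RefSeq places elsewhere.

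The nearest coding genes included many that Polycomb is known to silence. The windows had 4264 different nearest coding genes, of 15922 that were nearest to any window under the rule. Where the nearest coding gene encoded a homeobox protein, the class that patterns the body axis and many organs, 347 of 5636 windows (6.16%) were members, near 96 of 143 such genes. The share was 5.32% (104 windows) near T-box, Sox, and Gata factor genes, 4.08% (72) near basic helix-loop-helix factor genes, 3.65% (53) near forkhead genes, and 3.59% (220) near zinc finger regulators of development. All 5 shares lay above the 2.33% of all windows, and in KO they were 5.68%, 5.37%, 4.08%, 3.38%, and 3.17%. Genes of secreted signals (2.08%, 123 windows) and imprinted genes (2.17%, 36) lay close to the share of all windows, and the large Zfp, Zscan, and Gm class of zinc finger and predicted genes (2.68%, 625) somewhat above it. Neuronal receptor, channel, and adhesion genes (1.19%, 354 windows) and olfactory and vomeronasal receptor genes (1.09%, 74) lay below it. The classes also differed in CpG content, with medians over all their windows of 7.4 to 8.6 per kb for the 5 regulator classes, 5 for the neuronal genes, and 4 for the receptors.

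Members with the same nearest coding gene lay at a range of distances from it, and whether the mark extends from that gene was not tested. Pax2, which is needed for kidney and inner ear formation, was nearest to 32 windows, of which 16 were members, between 11.05 and 86.05 kb from its start. Their mean H3K27me3 fold was 19.5 and 29.6 in WT replicates 1 and 2 and 21.0 and 21.7 in KO replicates 1 and 2. The KO values lay between the WT values, and IgG stood at 0.71. Gata4, a regulator of heart and gonad, had 6 members among 17 windows, with mean folds of 33.6 and 54.3 in WT and 41.2 and 36.6 in KO, again within the WT range, and its highest window reached 68.8 in WT and 78.02 in KO. Sox1, a factor of the early neural plate, had 8 among 25, with 21.0 and 21.6 in WT and 22.5 and 15.8 in KO, where replicate 2 was the lowest of the 4.

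Other regulators had members at long range. Nr2f2, an orphan nuclear receptor of vessel and organ development, had 22 among 255 windows, from 11.7 to 592 kb away, at 16.7 and 17.4 in WT and 18.4 and 13.8 in KO. Tbx3, a T-box repressor in limb and heart, had 21 among 122, at 17.8 and 19.8 in WT and 18.7 and 14.9 in KO. Zfhx3, a homeobox factor with many zinc fingers, had 19 among 186, at 16.6 and 14.6 in WT and 16.1 and 9.19 in KO. At Nr2f2, Tbx3, and Zfhx3, KO replicate 2 lay below both WT libraries and KO replicate 1 did not. This was not particular to these genes. Summed over all distal windows, KO replicate 2 also had the lowest H3K27me3 fold, 11.1 against 12.7 to 14.7 in the other libraries. Genes outside the regulator classes were also nearest to many members, which lay as far as 535 kb from Vrk1 and 534 kb from Med13l. Vrk1, which encodes a nuclear kinase, had the most of any gene with 27 among 166 windows, the Mediator subunit gene Med13l had 21 among 137, and Smad2, a transducer of TGF-beta signals, had 21 among 99. A near window with a fold of at least 5 was present at the nearest gene for 53.7% of the distal windows, against 46.5% of the other windows under the rule. Of the 3 genes just named, Vrk1 and Smad2 had no such near window and Med13l had 1.

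**Figure D2:**
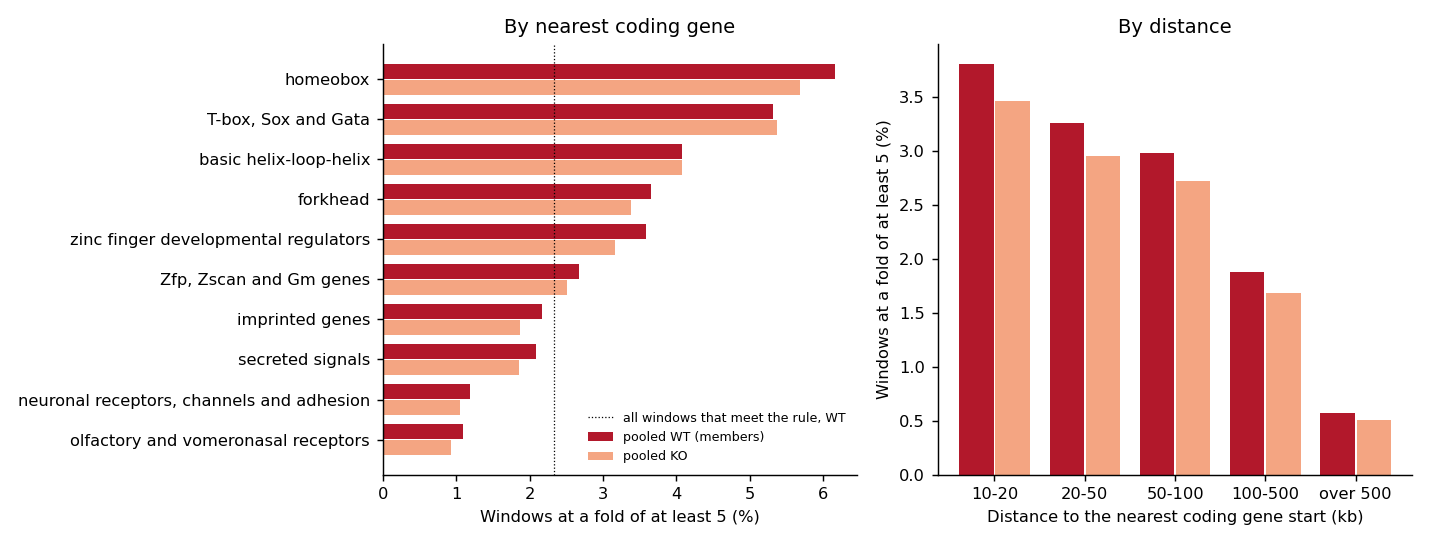
Bars give the percent of windows under the distance rule with an H3K27me3 fold of at least 5 in pooled WT (dark, the distal windows) and pooled KO libraries (light), by class of the nearest coding gene (left, dotted line 2.33% for all windows in WT) and by distance in kb to the nearest coding gene start (right). Homeobox genes stand highest at 6.16% in WT, receptor genes lowest at 1.09%, and the share falls from 3.80% to 0.574% with distance.

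Most distal windows stood alone, and several of the largest groups of adjoining windows lay over repeated DNA. Windows next to each other or with 1 window between them were joined into 7064 domains. Of these, 5316 consisted of 1 window, 1685 of 2 to 4, and 63 of at least 5, the last with 411 windows. Only 302 domains, with 432 windows (4.53%), were part of a run of fold 5 windows that reached a near window. Domains of at least 5 windows had a median of 16.2 CpG per kb against 13.6 in single windows. A tRNA, rRNA, or small nuclear RNA gene started in 9.49% of their windows, against 0.602% of the single windows. Windows of the 5S rRNA array (19 windows) and of the tRNA clusters on chromosomes 3 and 13 (12 and 9 windows), all described below, are among them. These loci contribute to the share, and what it would be without them was not tested.

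The domain with the most windows, chr6:114490001-114630000, held 28 and lay 13.1 kb from the start of Atg7, which encodes an enzyme of autophagy. No GENCODE or RefSeq gene lies in it, 75.3% of its bases are masked repeats, and it has 28.6 CpG per kb. Its H3K27me3 fold was 80.9 and 177 in WT and 76.5 and 265 in KO, with 4.12 and 0.376 with IgG in WT and 3.50 and 5.11 in KO. Its pooled H3K4me3 fold was 0.608. The domain chr8:123535001-123630000 held 19 windows inside the annotated body of Gas8, and 42 starts of 5S rRNA genes, which encode the small RNA of the large ribosomal subunit, at a median spacing of 1703 bp. There the fold was 104.5 and 226 in WT and 95.2 and 389 in KO, with 50.4 CpG per kb, an IgG fold of 4.001, and an H3K4me3 fold of 0.437. In both domains replicate 2 was the higher library of each genotype, by more than 2 times. With every deposited fragment counted, the folds of the first domain were 32.7 and 76.0 in WT and 36.7 and 69.9 in KO, and those of the 5S array 38.8 and 87.5 in WT and 42.7 and 89.6 in KO. Pairs of 25-bp reads cannot always be placed on 1 copy of a repeat, so values in arrays belong to the copies together.

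The domains chr6:47650001-47690000 (8 windows) and chr6:47735001-47780000 (9 windows) lie close together between Ezh2, the catalytic subunit of PRC2, and Pdia4, a chaperone of the endoplasmic reticulum. RefSeq places the Rn4.5s RNA gene in the first, along with several predicted coding genes. Their H3K27me3 fold was 278 and 586 in WT and 271 and 916 in KO in the first, and 244 and 541 in WT and 238.5 and 786 in KO in the second. With every deposited fragment the folds were 111 and 242 in WT and 131 and 249 in KO in the first, and 98.8 and 223 in WT and 116 and 216 in KO in the second, so KO replicate 2 was then close to WT replicate 2. With distinct fragments, H3K4me3 stood at 39.2 and 40.1 in the 2 domains, and IgG at 18.7 and 17.9, so the background antibody was also enriched. With every deposited fragment, H3K4me3 was between 10.9 and 17.9 in the first and between 12.6 and 20.3 in the second. IgG was then between 4.21 and 6.96 and between 3.40 and 8.39. Of the tRNA clusters, chr13:21220001-21280000 (9 windows, 11 tRNA genes, nearest coding gene Gpx5) had H3K27me3 folds of 18.8 and 15.3 in WT and 19.1 and 13.7 in KO, with an IgG fold of 0.237. Similarly, chr3:96325001-96395000 (12 windows, with 7 tRNA genes and the U1 small nuclear RNA genes Rnu1b1 and Rnu1b2, nearest Fcgr1) had 15.1 and 11.9 in WT and 17.05 and 13.2 in KO. In both clusters replicate 1 was the higher library and the genotypes overlapped. KO was the higher within each replicate number on chromosome 3, and in replicate 1 only on chromosome 13. With every deposited fragment the folds were 12.4 and 10.6 in WT and 14.7 and 12.9 in KO on chromosome 3. On chromosome 13 they were then 21.0 and 20.447 in WT and 20.446 and 18.1 in KO. Both KO values were thus above WT on chromosome 3 and below WT on chromosome 13.

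The other 4 of the 10 largest domains differed in repeat content and background. The domain chr7:70320001-70355000, 7 windows that begin 11.7 kb from the start of Nr2f2, had 20.1 CpG per kb and 18.99% masked bases. Its fold was 27.9 and 35.8 in WT and 31.98 and 30.3 in KO, with 0.304 with IgG and 0.515 with H3K4me3. With every deposited fragment it was 29.9 and 42.0 in WT and 33.4 and 43.4 in KO. At chr5:118310001-118385000 (9 windows, 64.8 kb from 2410131K14Rik) the fold was 13.1 and 18.1 in WT and 12.7 and 10.7 in KO, with 31.5% masked bases and an IgG fold of 0.632. With every deposited fragment it was 14.1 and 21.1 in WT and 13.1 and 16.6 in KO, so the genotypes then overlapped. The domains chr8:55345001-55385000 and chr8:55480001-55520000 (8 windows each, nearest Gpm6a and Adam29) had IgG folds of 7.10 and 3.55. The H3K27me3 fold was 16.8 and 6.90 in WT and 9.81 and 11.6 in KO in the first. In the second it was 10.9 and 7.52 in WT and 6.55 and 9.34 in KO. KO was lower than WT in replicate 1 and higher in replicate 2 in both domains. With every deposited fragment their H3K27me3 folds were between 2.67 and 7.25 and between 3.11 and 4.52 over the 4 libraries, and RefSeq places predicted coding genes in both.

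The highest single windows included RNA repeats, windows high with IgG, and coding exons made of internal repeats. Window chr17:39845001-39850000 holds the 18S rRNA copy Rn18s-rs5, according to RefSeq, and had folds of 845 and 1482 in WT and 916 and 1706 in KO. It was also high with H3K4me3 (205), H3K9me3 (130), and IgG (62.5). In 2 windows the pooled IgG fold stood above the pooled WT H3K27me3 fold. At chr17:4625001-4630000 the H3K27me3 folds of 37.5 and 3182 in WT and 5.74 and 465 in KO differed between replicates far more than between genotypes. IgG folds there were 1424 and 4742 in WT and 1210 and 2250 in KO (2232 pooled), lower in KO within each replicate number. Counting every deposited fragment gave H3K27me3 folds of 13.9 and 1255 in WT and 2.64 and 108 in KO. IgG was then 282 and 1120 in WT and 258 and 499 in KO, so H3K27me3 stood above IgG in WT replicate 2 alone. At chr9:35305001-35310000, nearest Rpusd4, the IgG fold was 943 and the H3K9me3 fold 1370, against a WT H3K27me3 fold of 132. With every deposited fragment H3K9me3 was between 5985 and 10060 and IgG between 633 and 1158. The H3K27me3 folds were then 120 and 193 in WT and 116 and 395 in KO. At chr6:3200001-3205000 the IgG fold of 18.5 was high but below the WT fold of 112. The window chr12:112780001-112785000 in an exon of Ahnak2, a giant scaffold protein, had folds of 169 and 175.5 in WT and 150 and 270 in KO, and bases 519 bp apart in it were identical at 72.3% of positions, against 28.4% at the median spacing. The window chr3:93285001-93290000 in the exon of Flg, the epidermal protein filaggrin, had 139 and 238 in WT and 123 and 284 in KO, with a period of 1515 bp and 89.4% identity. IgG folds there were 1.42 and 4.26. The folds in the Ahnak2 window with every deposited fragment were 70.5 and 76.5 in WT and 71.5 and 71.1 in KO, and those in the Flg window 59.6 and 108 in WT and 59.2 and 87.5 in KO. The window chr16:89960001-89965000, which holds an exon of Tiam1, reached 108 and 60.2 in WT and 106 and 116 in KO (66.1 and 48.01 in WT and 70.96 and 56.04 in KO with every deposited fragment), with a short period of 50 bp at 45.8% identity against 25.2% at the median spacing, and with 0 IgG fragments in 4 libraries, which allows an IgG fold of up to 2.13.

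**Figure D3:**
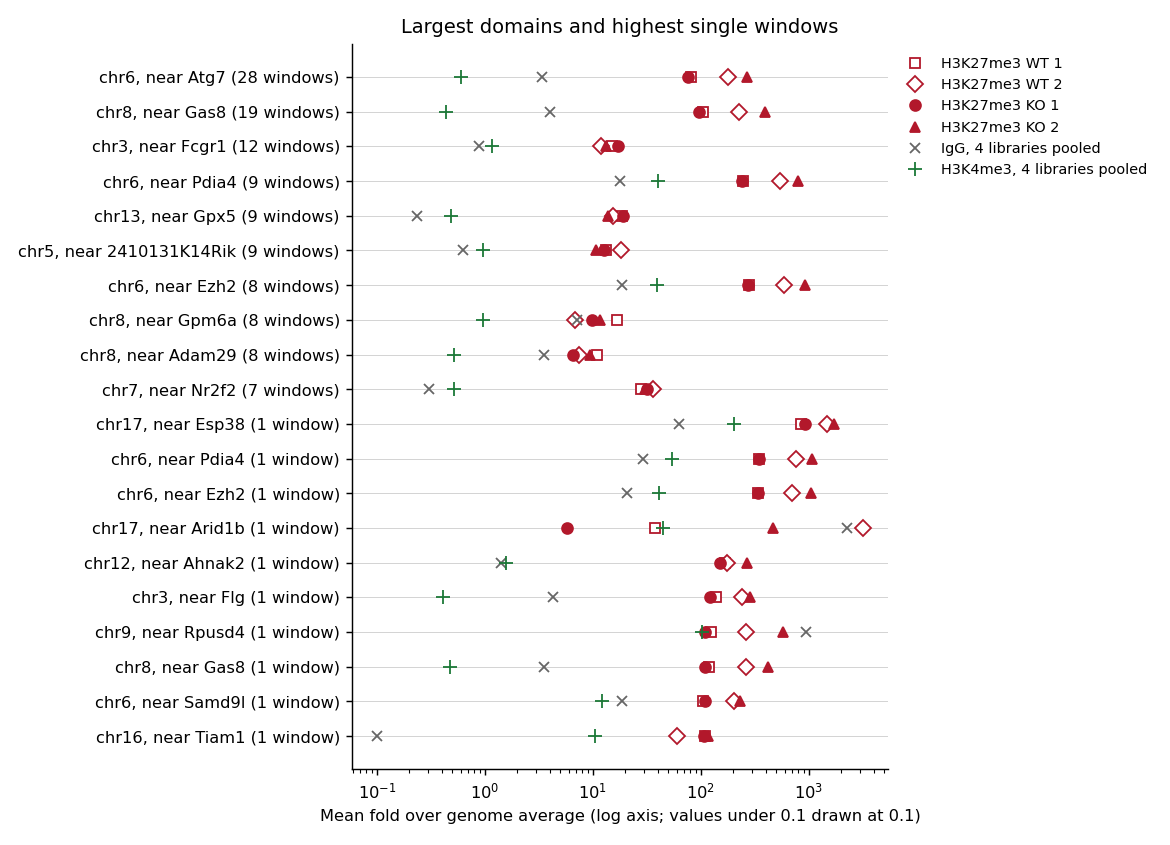
Mean fold (log axis) over the 10 largest domains and in the 10 highest single windows, named by the nearest coding gene, for each H3K27me3 library (WT open, KO filled) and for the pooled IgG (crosses) and H3K4me3 (plus signs) libraries, with values under 0.1 drawn at 0.1. In the domains near Atg7 and Gas8 the replicate 2 libraries stand above the replicate 1 libraries, while near Nr2f2 all 4 lie between 27.9 and 35.8.

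H3K4me3 was present at a minority of distal windows. With its 4 libraries pooled, 627 of the 9544 windows (6.57%) had an H3K4me3 fold of at least 5, where 2.01% of all windows under the distance rule did, and 10.7% of near windows. Of the 627, 89 also had an IgG fold of at least 5. The median H3K4me3 fold was 0.408 in the distal windows, 0.204 in the other windows under the rule, and 0.613 in near windows, all below the genome average of 1. For H3K9me3, 352 windows (3.69%) had a fold of at least 5, where 3.37% of all windows did, and 67 of these had high IgG. Median H3K9me3 folds were 0.346, 0.208, and 0.450. At IgG depth, 1 fragment in a window is a fold of 0.710, so windows with few IgG fragments could not be compared with IgG one by one.

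Summed over all 9544 windows, H3K4me3 lay below IgG, and the few windows of high IgG held most of the IgG fragments found there. The H3K4me3 fold was 1.44 ± 0.0365 and the IgG fold 2.63 ± 0.599 (SD, n = 4 libraries), a difference of -0.85 on the log2 scale (exact two-sided permutation test, p = 0.0286, adjusted p = 0.0286 over 2 marks). The 224 windows of high IgG held between 67.2% and 82.4% of the IgG fragments in the distal windows, between 13.6% and 24.6% of the H3K4me3 fragments, and between 43.0% and 45.7% of the H3K9me3 fragments. Without them the fold was 1.19 ± 0.0626 for H3K4me3, 0.883 ± 0.0358 for H3K9me3, and 0.652 ± 0.0411 for IgG. H3K4me3 was then 0.87 above IgG on the log2 scale and H3K9me3 0.44 above it, which is not tested because the IgG values chose what was left out. With all windows, H3K9me3 (1.54 ± 0.0745) had been 0.74 below IgG (p = 0.0286 by the exact permutation test). With every deposited fragment counted, H3K9me3 was 0.56 above IgG instead, and the H3K4me3 difference shrank to -0.16 (exact permutation test, p = 0.2). The IgG sum thus rested on a few windows of very high coverage.

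The share of windows that held at least 1 fragment does not depend on a few windows. With every library thinned to 140181 fragments, H3K4me3 fragments were found in 18.9% ± 1.46 of distal windows and 10.6% ± 0.999 of the other windows under the rule (SD, n = 4). IgG fragments were found in 17.2% ± 1.25 and 17.5% ± 2.42, and H3K9me3 fragments in 16.1% ± 2.12 and 13.2% ± 0.88. Over the distal windows alone the differences from IgG did not pass the test, with 1.71 points more for H3K4me3 and 1.14 points fewer for H3K9me3 (-1.14, exact two-sided permutation test, adjusted p = 0.314 for each). The excess in distal windows was 8.34 ± 0.52 percentage points with H3K4me3 and 2.94 ± 1.38 with H3K9me3, while IgG gave -0.30 ± 1.55. In this comparison with the other windows, chosen after the data were seen, both marks lay above IgG (exact two-sided permutation test, p = 0.0286 and adjusted p = 0.0286 for each). For comparison, H3K27me3 at the same depth reached 92.9% and 81.1% of distal windows in WT and 90.7% and 73.9% in KO, against 6.59% to 11.4% of the other windows.

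H3K4me3 was lower in distal windows than in near windows in all 4 of its libraries, but its difference from IgG in this respect turned with the windows of high IgG. Over every window, distal minus near was between -1.23 and -0.88 on the log2 scale for H3K4me3 and between -2.32 and -1.13 for IgG, a difference of 0.48 (exact two-sided permutation test, p = 0.0571, adjusted p = 0.0571 over 2 marks). For H3K9me3 it was between -3.08 and -2.83, which is 1.44 below IgG (-1.44, exact permutation test, p = 0.0286, adjusted p = 0.0571). Over windows with an IgG fold under 5, distal minus near was between -0.81 and -0.75 on the log2 scale in the 4 H3K4me3 libraries and between -0.10 and 0.24 in the 4 IgG libraries. The difference between the targets was -0.90, and for H3K9me3 the difference from IgG was -0.05. Near windows were also richer in CpG, with 19 against 14 per kb.

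**Figure D4:**
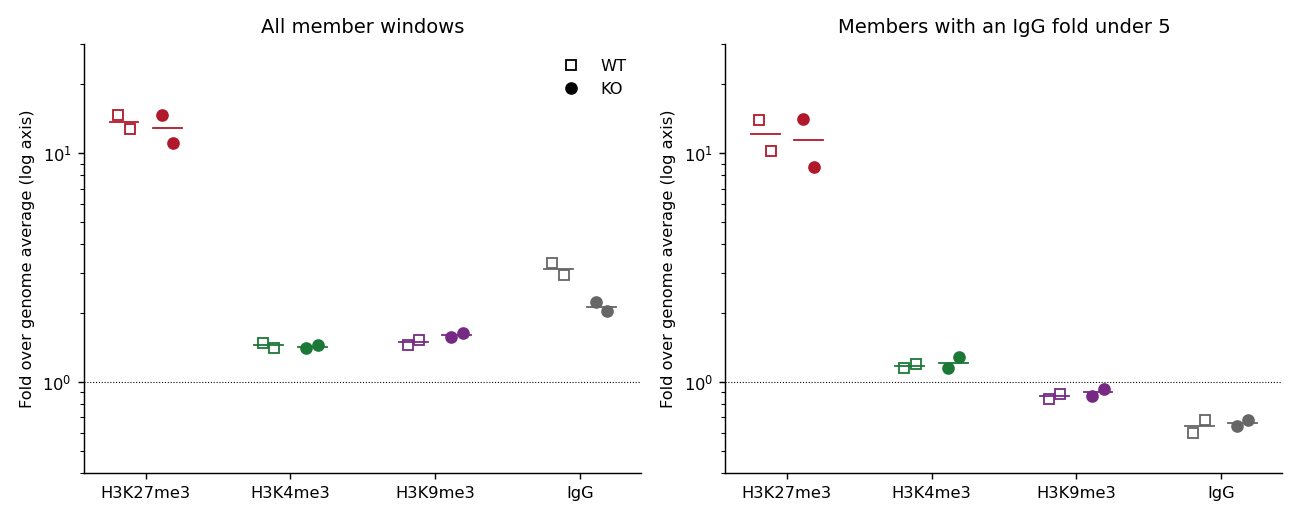
Fold of the summed distal windows in each library (open squares WT, filled circles KO, bars the mean of 2 libraries, dotted line the genome average of 1, log axis), over all 9544 windows (left) and without the 224 with an IgG fold of at least 5 (right). IgG falls from between 2.03 and 3.32 to between 0.598 and 0.684, a fall built in because the IgG libraries chose the windows left out.

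Within the H3K27me3 libraries, fragments from the distal windows were more often nucleosome sized than those from the other windows under the rule, as were those from near windows. Fragments were split by length, and those of 150 bp or more are called large here and those of 120 bp or less small. An intact nucleosome shields DNA of the large class from MNase, whereas a shorter shielded stretch can come from a nucleosome that has lost some of its contacts or from another protein on the DNA. The number of small per large H3K27me3 fragment was 0.102 in the distal windows and 0.163 in the other windows under the rule in WT replicate 1, and 0.259 and 0.641 in WT replicate 2. In KO it was 0.162 and 0.281 in replicate 1 and 0.354 and 1.03 in replicate 2. In near windows the ratio was 0.106 and 0.174 in WT and 0.167 and 0.311 in KO. All 4 libraries were lower in the distal than in the other windows, by 0.67 to 1.54 on the log2 scale, and lower by 0.62 to 1.88 in near windows. The IgG libraries were lower in near windows too, by 1.49 to 2.23, and distal and near windows were not tested against each other. The 4 IgG libraries were higher in the distal windows, with ratios of 1.94 to 2.32 against 1.03 to 2.204. The 4 H3K9me3 libraries were higher there too, by 0.16 to 0.85 on the log2 scale. Without the windows of high IgG both turned around. All 4 IgG libraries were then lower in the distal windows, by 0.07 to 0.61, as were the 4 H3K9me3 libraries, by 0.35 to 0.39. The H3K4me3 libraries went both ways, from -0.24 to 0.31 over all windows and from -0.27 to 0.08 without those of high IgG. In KO, whose libraries did not choose the windows, the difference between H3K27me3 and IgG was -1.47 (exact two-sided permutation test of 2 libraries against 2, p = 0.333, the smallest it can give). Over all 4 libraries it was -1.64, and -1.02 without the windows of high IgG, both given with no test because the WT libraries chose the windows.

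The lengths of the same fragments were also read directly. The modal length was searched between 120 and 250 bp on an 11-bp running mean, so it is the peak within that range. For H3K27me3 fragments in the distal windows it was 182 and 177 bp in WT and 186 and 176 bp in KO. In the other windows it was 184 and 177 bp in WT and 187 and 183 bp in KO. The median over all lengths was 191 and 181 bp in WT and 193 and 178 bp in KO in the distal windows. It was 191 and 167 bp in WT and 190 and 132 bp in KO in the other windows. Fragments of 150 to 250 bp, the size of a single nucleosome, made up 68.5% and 62.0% in WT and 64.5% and 58.5% in KO, against 62.3% and 38.4% and 55.7% and 31.7% in the other windows. IgG fragments in the distal windows had a median length of 83 to 98 bp, but between 67.2% and 82.4% of them lay in the windows of high IgG. Without those windows the IgG ratio of small to large fragments was 0.901 to 1.44. The ratio in the named regions is given with both KO libraries pooled, although the ratios of these libraries differ and KO replicates 1 and 2 gave 16425 and 10324 fragments near Atg7 but 1717 and 295 near Nr2f2, so the regions cannot be ranked by it. It was 0.144 in the domain near Atg7, 0.158 in the 5S array, and 0.234 near Nr2f2. It was 0.0271 in the Ahnak2 exon and 0.0616 in the Flg exon, where nearly every fragment was large, and 1.23 at both windows of very high IgG on chromosomes 17 and 9. In the other marks the ratio of small to large fragments in distal windows was 0.337 to 0.584 for H3K4me3 and 0.277 to 0.633 for H3K9me3. Without the windows of high IgG it was 0.299 to 0.571 for H3K4me3 and 0.116 to 0.446 for H3K9me3.

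KO libraries had more small fragments in the distal windows than WT libraries of the same replicate number for each of the 3 marks, as they did elsewhere, and none of the differences tested could be called. For H3K27me3 the ratio was higher in KO by 0.66 in replicate 1 and 0.45 in replicate 2 on the log2 scale (mean 0.56, with an SD of 0.88 between replicates), which is a description because WT fragments chose the windows. For H3K4me3 it was 0.57 and 0.79 (mean 0.68), more than the SD of 0.08 (p = 0.333, the smallest the exact permutation test can give with 2 against 2). For H3K9me3 it was 0.33 and 0.35 (mean 0.34, SD 0.60, exact permutation p = 0.667), and for IgG 0.20 and -0.06 (mean 0.07, SD 0.13, exact permutation p = 1). The IgG difference was 0.43 with every deposited fragment and also 0.43 without the windows of high IgG (exact permutation p = 0.333 for each), against 0.61 for H3K9me3 without those windows. Adjusted over the 3 targets tested, p was 1 for H3K4me3, H3K9me3, and IgG. With the replicate number as a block, 2 pairs cannot give an exact p below 0.5. In the other windows under the rule the mean differences were 0.73, 0.91, 0.59, and 0.59, so with all windows each was smaller in the distal windows. Without the windows of high IgG the distal differences were 0.80 for H3K27me3, 0.83 for H3K4me3, 0.61 for H3K9me3, and 0.43 for IgG. The distal difference was then no longer the smaller for H3K27me3 and H3K9me3. Distal and other windows were not tested against each other in this respect.

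**Figure D5:**
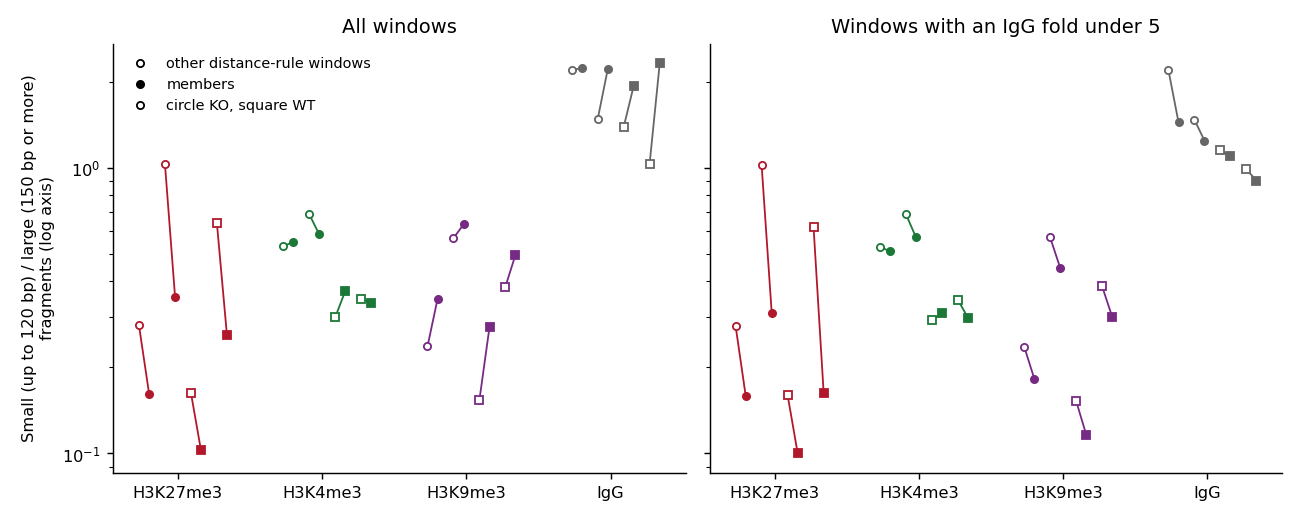
Small (up to 120 bp) per large (150 bp or more) fragment on a log axis in each library, in other windows under the distance rule (open) joined to the distal windows (filled), with circles for KO and squares for WT, over all windows (left) and windows with an IgG fold under 5 (right). The lines of the 4 H3K27me3 libraries fall in both panels, to between 0.102 and 0.354 in the left one.

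Coverage of the distal windows by the other marks was compared between KO and WT with limma-voom across all 396761 windows under the rule that held a fragment in any library, and Benjamini-Hochberg adjusted p-values under 0.05 were called. For H3K4me3 it called 0 distal windows higher and 0 lower in KO, with 0% of all windows in either direction. At an unadjusted p under 0.05 there were 353 of the 9544 (3.70%), against 3.26% of all windows, and limma-trend called 1, its only call among all windows. The median log2 change was -0.22 in the distal windows and -0.39 over all windows, and under TMM normalization, which shifted all windows to -0.08, it was 0.11. Among windows with at least 10 H3K4me3 fragments over the 4 libraries, the medians were -0.03 in distal windows and -0.14 over all. The medians thus depended on the sparse windows and are not read as lower H3K4me3 in KO. For H3K9me3 limma-voom called 0 distal windows, with 0% of all windows higher and 0.000252% (1 window) lower. There were 376 distal windows (3.94%) at an unadjusted p under 0.05, against 3.02% of all windows, limma-trend called 0, and the median log2 change was 0.03 against -0.08 over all windows. In counts simulated from these libraries with 200 windows of at least 40 fragments raised 4 times, the test recovered 195 of 200 for H3K4me3 and 191 of 200 for H3K9me3, beside 19 and 17 false calls. The simulated counts varied by counting error alone, with no spread between animals. Of the 9544 distal windows, only 3000 held at least 10 H3K4me3 fragments over the 4 libraries, and 5275 held as many for H3K9me3. The recovery thus does not show how often a change in sparser windows would be called.

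The H3K4me3 count depended on how identical fragments were counted and changed when a library was left out. With every deposited fragment counted, 145 distal windows were called, 100 higher and 45 lower in KO (1.52%), beside 2624 and 1421 of all windows (1.02%). Without H3K4me3 WT replicate 2 there were 22 (0.231%), beside 135 higher and 60 lower of all windows (0.0491%). Without H3K9me3 KO replicate 1 there were 26 for that mark (0.272%), of which 24 were higher, near the 0.201% of all windows, where 744 were higher and 52 lower. Leaving out a library leaves 1 genotype with a single one, which is assumed to vary like those of the other genotype. When the pairs entered limma-voom as a replicate block, 2 distal windows were called for H3K4me3, both lower in KO and the only calls over all windows, and 0 for H3K9me3. These windows, named here after their values were seen, were chr17:4625001-4630000, the window of very high IgG described above, and chr11:25100001-25105000, with an IgG fold of 555. The H3K4me3 fold was 62.5 and 88.9 in WT and 28.8 and 18.9 in KO in the first (limma-voom with the block, adjusted p = 0.0129) and 29.9 and 27.9 in WT and 5.53 and 5.64 in KO in the second (adjusted p = 0.0255). The window that limma-trend called was the first of them, as was the 1 called without H3K4me3 WT replicate 1, and the 2 called when windows needed at least 10 fragments were the same. In the first window the IgG fold was also lower in KO within each replicate number, at 1210 and 2250 against 1424 and 4742 in WT. H3K27me3 itself was not tested between the genotypes, because WT values chose the windows.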

How the data were processed

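The authors sequenced AutoCUT&RUN libraries as 25-bp read pairs and aligned them to mm10 with Bowtie2 (version 2.3.4.3 in the submitters' processing notes). The deposited lists, 1 per library, give the start, end, and length in bp of each mapped fragment, without scaling or pooling. These positions and lengths are not counts per region, so no count model of deposited values applied. Between 33.6% and 83.4% of the fragments in a list repeated the coordinates of another, although duplicate removal is described in the methods, and fragments with the same coordinates were counted as 1. Between 140181 and 3963850 autosomal fragments remained.

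Fragment midpoints were counted in 5-kb windows of chromosomes 1 to 19. The fold is midpoints over library fragments × 5000 / 2.46e+09. The choice of windows and of gene classes was made with earlier results of these data known. Named were the 10 domains with the most windows, the 10 highest windows, the 5 separate domains with the most fragments, and windows called by the limma-voom tests, of which there were 0. Genes described with their members, from Pax2 to Smad2, were picked outside this rule. They came from the gene classes and from the genes nearest to the most members. Gene starts are those of GENCODE vM21, with RefSeq as a second source. Summed values were compared between libraries by exact two-sided permutation tests and windows between genotypes with limma-voom, with Benjamini-Hochberg adjustment. Limma-voom of H3K27me3 against IgG in KO per window was run first but gave 203908 false calls among 396561 unchanged windows of simulated data, so after its calls had been seen it was replaced by a test of sums.

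Replicates 1 and 2 were taken as the sibling pairs named in the methods. Deviations of same-numbered KO and WT libraries correlated at 0.404 for H3K4me3, 0.337 for H3K9me3, 0.0804 for H3K27me3, and 0.0963 for IgG over part of the windows under the distance rule. These were 61739, 127710, 48281, and 2997 windows in the same order. Over distal windows the correlations were 0.268, 0.185, 0.213, and 0.0511, from 3000, 5275, 9544, and 179 windows. Permutation p-values between genotypes rest on 2 libraries of each genotype, and limma-voom p-values on a variance partly shared across windows. The tests of 4 mark libraries against 4 IgG libraries pool both genotypes and treat libraries of the same animals as unpaired. Alternatives were every deposited fragment, other thresholds, distances, gene starts, grid, scaling, models, and length limits, high IgG windows left out, the pair as a block, and each replicate left out. Tools were limma 3.58.1 in R 4.3.3 and, in Python 3.11.15, pandas 2.3.3, SciPy 1.17.1, NumPy 2.4.6, and matplotlib 3.10.9.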

Additional observations from a re-analysis of the deposited data

How the results depend on the processing

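The number of distal windows was 9544, and it was 6254 at a fold of at least 8, 5223 at more than 50 kb, and 6037 away from the start of every annotated gene. It ranged from 9740 to 14106 when either WT replicate was left out, and without WT replicate 1 the shallow library that remained shared 6704 windows with the 9544. The median KO fold of 9.38 became 13.4 for windows at a fold of at least 8 and ranged from 5.03 (without KO replicate 1) to 10.2 when a KO replicate was left out. H3K4me3 against IgG over the summed windows (log2 -0.85) was -0.16 with every deposited fragment, -0.35 scaled to the windows under the distance rule, and 0.87 without high IgG windows. H3K9me3 against IgG (-0.74) was 0.56, -0.57, and 0.44 in the same order. As the share of windows with a fragment at equal depth, an alternative chosen after seeing the data, the differences were 1.71 points for H3K4me3 (adjusted p = 0.314 by the exact permutation test) and -1.14 for H3K9me3, and relative to other windows 8.64 and 3.24 points. Leaving out 1 replicate gave -0.96 to -0.74 and -0.88 to -0.59, where 3 libraries against 3 cannot go below p = 0.1 in an exact test. The H3K4me3 count of called windows (0) was 1 with limma-trend (1 of all windows), 1 with TMM (chr17:86425001-86430000, named after its value was seen, with 4 higher and 10 lower of all windows), 2 at 10 or more fragments (2 of all windows), 145 with every deposited fragment, and 0 to 22 with a library left out, and the H3K9me3 count (0) was 0 to 26 with a library left out. The difference in small to large fragments between H3K27me3 and IgG (-1.64) was -1.92 to -1.36 with a replicate left out and -1.47 in the KO libraries only, a setting chosen after seeing the data. KO minus WT of IgG sizes was -0.065 without replicate 1 and 0.20 without replicate 2.

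With libraries of the same animal as a replicate block, 4 pairs cannot give an exact p below 0.125, which was the p for H3K4me3 (-0.85) and H3K9me3 (-0.74), so both calls were lost. The difference in sizes with the block (-1.64) is given with no test. With the block, limma-voom called 2 distal windows for H3K4me3 and 0 for H3K9me3, and the single window it had called lower for H3K9me3 over all windows was no longer called. The causes of these changes were not tested, apart from the fewer libraries or windows that an alternative leaves. Limma-voom of H3K27me3 against IgG per window in KO was run on the deposited data with its variations and dropped after its calls had been seen, when it failed on simulated data. It had called 3535 windows higher and 69392 lower with library-size scaling, and 7426 higher and 11 lower with TMM, so its calls support nothing here.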
